A study of Mus musculus with 8 samples.

Results

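The genes described here are 34 interferon-stimulated genes, listed by symbol for their place in the pathway and not by a threshold on their values. All were found among 21757 mouse genes in an experiment on genotype and among 60038 human genes in an experiment on knockdown of Prmt1. The choice was made with earlier results of these data known, so shares over the list are a description and not a test. In the genotype experiment, 2 libraries of wild-type (WT) mouse small intestinal organoids were compared with 2 libraries of Ctnnb1-ex3 organoids. Intestinal organoids are self-renewing epithelial cultures. Ctnnb1-ex3 is the usual name of a beta-catenin allele without exon 3, the exon that encodes the phosphorylation sites through which the protein is marked for degradation. WT organoids received Wnt3a, R-spondin1, Noggin at 0.1 µg/ml and EGF at 0.05 µg/ml. Ctnnb1-ex3 organoids received Noggin and EGF at those concentrations without Wnt3a or R-spondin1, so genotype and medium differed together and cannot be told apart. The Cre driver, the mouse strain, the age of the mice and the number of lines were not given in the sources used here.

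The knockdown experiment set 2 libraries carrying a hairpin that targets Prmt1 (sh-Prmt1) against 2 carrying a scrambled one (sh-scramble). PRMT1 is the enzyme that makes most asymmetric dimethylarginine in cells. The labels describe these as mouse intestinal organoids, yet the gene tables hold human genes, so the species and the medium of that culture are not established here. The hairpin sequence and the line that carried it were not given in the sources used here. Nothing states that the 2 libraries of a group were separate cultures or animals. The p-values therefore rest on how far these libraries lie apart, and that distance may be technical.

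Interferons are secreted proteins that bind receptors on the cell surface. The receptors activate JAK kinases, which phosphorylate STAT proteins, and STAT proteins together with IRF9 bind a DNA element in the promoters of a large set of genes. The products of those genes sense viral RNA, block its translation, degrade it or tag proteins with ISG15. In the gut epithelium, type III interferon acting through the receptor chain encoded by Ifnlr1 is a main antiviral signal, and some of these genes are also transcribed at a low level without added interferon.

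The promoters of the mouse genes were searched for sequences through which these factors are known to act. Motifs of 2 kinds were searched in the 250 bases before each annotated start in RefSeq promoter windows of GRCm38.p6. The first was the core of the interferon-stimulated response element (ISRE), which is GAAA, then any 2 bases, then GAAA, searched on both strands. On the other strand it reads as TTTC, 2 bases and TTTC. The second was the gamma-activated sequence (GAS), TTCNNNGAA, which reads the same on both strands. Windows were found for 26 of the 34 genes. The windows of Oas2, Mx1, Mx2, Dhx58, Parp9, Zbp1, Usp18 and Parp14 were not among those used. The ISRE core was present in 11 of the 26 genes (42.3%), beside 3.46% of the 27025 genes with a window. The GAS motif was present in 5 of the 26 (19.2%), beside 8.13% of all genes. Neighbouring ISRE matches can overlap, and in Bst2 the GAS match overlapped an ISRE match.

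The stretches below come first from the 4 genes that changed in the genotype experiment and held a match, and then from 3 well-known members that held an ISRE core and did not pass the test there. Each is printed 5′ to 3′ on the strand of its gene. Capitals mark the ISRE core, or in Irf1 and Ifit2 the GAS motif.
Oas1a, chr5:120907526-120907575, minus strand: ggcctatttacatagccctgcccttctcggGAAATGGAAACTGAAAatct
Ifit1, chr19:34640755-34640843, plus strand: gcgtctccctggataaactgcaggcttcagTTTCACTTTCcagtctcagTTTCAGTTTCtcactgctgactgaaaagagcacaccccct
Irf1, chr11:53769894-53769962, plus strand: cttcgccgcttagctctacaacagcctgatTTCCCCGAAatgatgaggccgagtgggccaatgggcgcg
Ifit2, chr19:34550444-34550491, plus strand: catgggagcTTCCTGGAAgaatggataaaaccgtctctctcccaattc
Isg15, chr4:156200845-156200926, minus strand: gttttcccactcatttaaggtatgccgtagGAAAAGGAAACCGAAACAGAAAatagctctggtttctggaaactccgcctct
Bst2, chr8:71537557-71537632, minus strand: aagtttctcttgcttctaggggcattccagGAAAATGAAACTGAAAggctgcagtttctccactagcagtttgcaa
Rsad2, chr12:26456533-26456602, minus strand: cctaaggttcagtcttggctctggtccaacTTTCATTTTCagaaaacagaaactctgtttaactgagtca

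In Oas1a the 2 overlapping ISRE cores lay 20 to 11 and 14 to 5 bases before the annotated start. In Isg15 there were 3 overlapping cores, the first of which began 78 bases before the start. In Ifit1 the 2 cores did not overlap, and lay 104 to 95 and 85 to 76 bases before the start. The GAS motif of Irf1 lay 90 to 82 bases before its start.

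**Figure D1:**
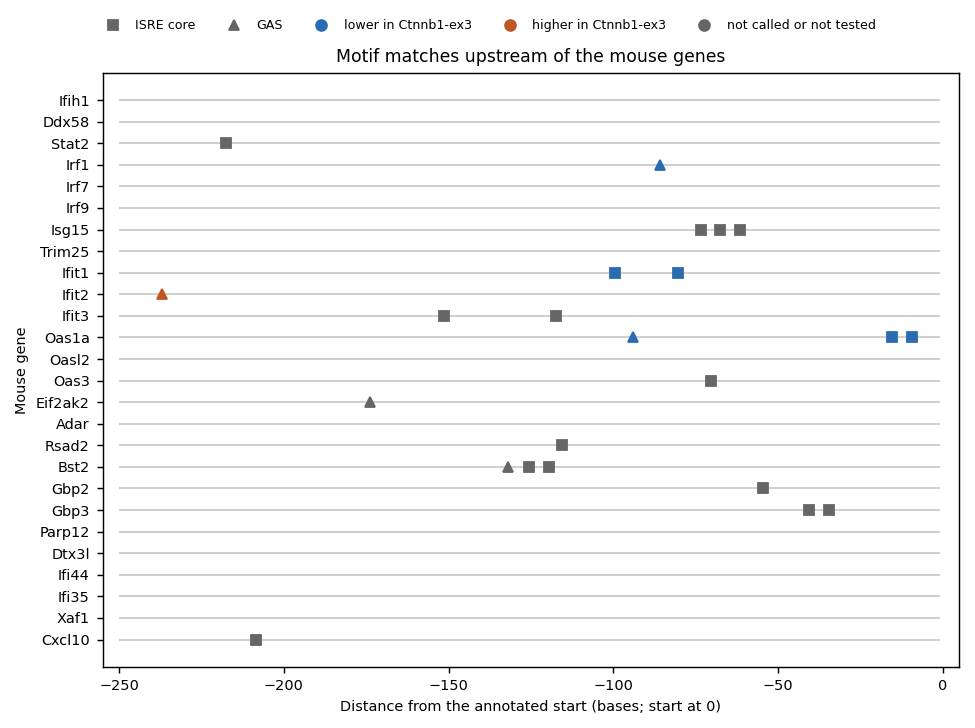
Positions of ISRE core (squares) and GAS (triangles) matches in the 250 bases before the annotated start of the 26 mouse genes with a window; the horizontal axis is the distance from the start in bases. Blue marks genes that fell in Ctnnb1-ex3, orange the 1 gene that rose, and grey the genes not called or not tested. The ISRE core was present in 11 of the 26 genes, of which 2 (Oas1a and Ifit1) are blue.

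The libraries of the genotype experiment held 2951887 to 6015933 counts, and those of the knockdown experiment 39607863 to 53192900 estimated counts. No deposited genotype count is below 1, so 1 may have been added to every count, which no source states, and the genotype counts printed here may be 1 too high. Levels are CPM (counts relative to library size, TMM-scaled), given per library and as mean ± SD with n = 2. Folds are taken from the edgeR log2 fold change and can differ somewhat from the ratio of the mean CPM. A floor of 3 counts stood for 0.451 to 1.14 CPM in the genotype experiment and for 0.0528 to 0.0809 CPM in the knockdown experiment. A gene was called when its adjusted p in edgeR's quasi-likelihood test, over all genes tested, was under 0.05, and the words rose and fell are used only for such genes. In the knockdown, PRMT1 itself had 1373 and 1451 counts in sh-scramble, against 128 and 190 in sh-Prmt1, a fall of 11.2-fold (log2 fold change -3.48 ± 0.12 SE, edgeR adjusted p = 1.04e-06). In the genotype experiment Prmt1 had 44 and 30 counts in WT, against 341 and 126 in Ctnnb1-ex3 (log2 fold change 1.97 ± 0.33, edgeR adjusted p = 0.00287).

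Among the interferon-stimulated genes, falls in Ctnnb1-ex3 outnumbered rises 12 to 2. The filter on low counts passed 31 of the 34, all but Mx2, Gbp2 and Gbp3. Of these 31, 12 fell (38.7%), 2 rose (6.45%) and 17 did not pass the test. Over all 12976 genes tested, 20.5% fell and 20.3% rose. The median log2 fold change was -0.55 over the 31 genes and 0.02 over all genes tested, and 23 of the 31 values were negative. The libraries of the groups did not overlap in 17 genes that were lower and 4 that were higher in Ctnnb1-ex3, beside 35.6% and 38.1% of all genes. Since these are bulk samples, fewer cells of a type and less RNA per cell cannot be told apart.

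**Figure D2:**
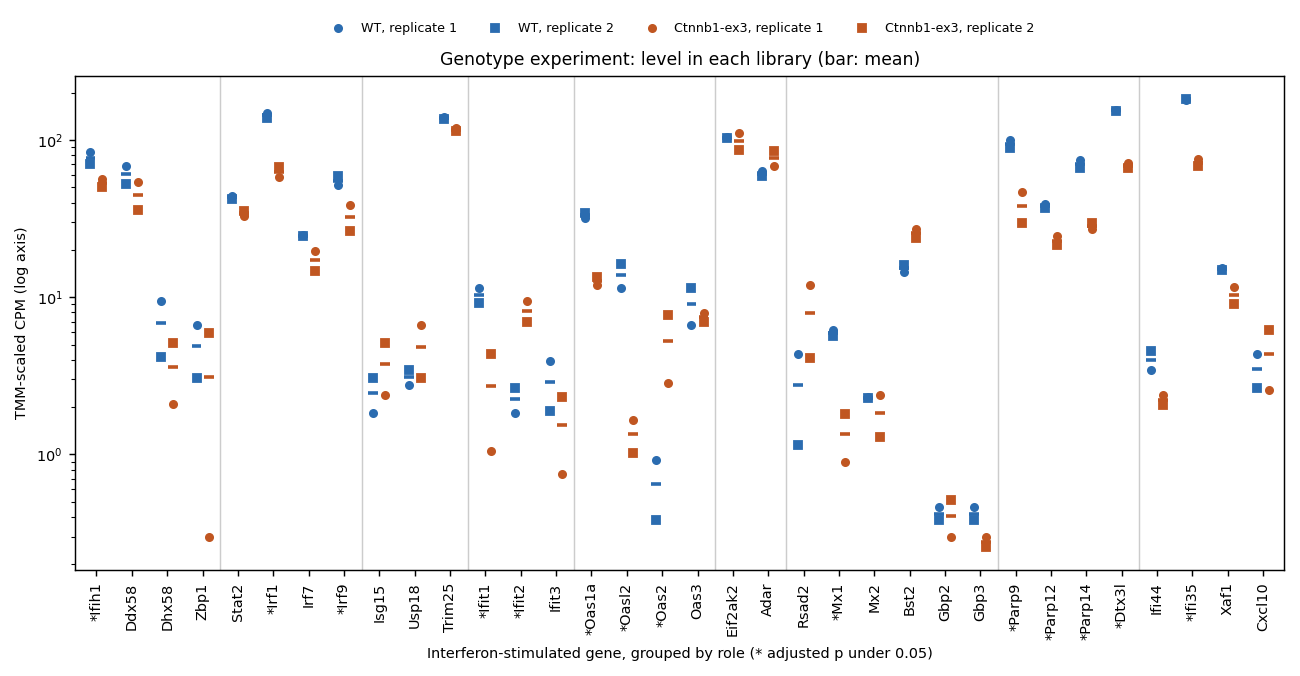
TMM-scaled CPM (log axis) of the 34 genes in each WT (blue) and Ctnnb1-ex3 (orange) library, with circles for replicate 1, squares for replicate 2 and bars for group means. Asterisks mark the 14 genes with an edgeR adjusted p under 0.05, and grey lines separate the roles. The PARP genes, Dtx3l and Ifi35 lie lower in both Ctnnb1-ex3 libraries than in both WT libraries.

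The clearest group was the PARP genes with their partner: all 4 fell. Parp9 and Dtx3l encode an ADP-ribosyltransferase family protein and the ubiquitin ligase it binds, which act together in DNA damage and antiviral responses. Dtx3l was at 155 and 153 CPM in WT and at 70.9 and 66.0 in Ctnnb1-ex3. Its mean went from 154 ± 1.43 to 68.5 ± 3.48, 2.24-fold lower (log2 fold change -1.17 ± 0.13, edgeR adjusted p = 0.000535). The groups were far apart for Dtx3l relative to the spread within them. Parp9 was at 101 and 88.3 CPM in WT and at 46.4 and 29.8 in Ctnnb1-ex3, 2.45-fold lower (log2 fold change -1.29 ± 0.22, edgeR adjusted p = 0.00292). The mouse genes lie head to head on chromosome 16 in GRCm38, Dtx3l at 35926511 to 35939151 on the minus strand and Parp9 at 35938470 to 35972605 on the plus strand. Their starts are 681 bases apart and they share 458 exon bases. If the counting did not use strand, reads from the shared bases cannot be told apart, so the pair may be less than 2 independent measurements.

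Parp14, also an ADP-ribosyltransferase and a neighbour on chromosome 16 (35832874 to 35871544), was at 74.8 and 66.6 CPM in WT and at 27.1 and 29.8 in Ctnnb1-ex3. The groups did not overlap, and Parp14 was 2.50-fold lower (log2 fold change -1.32 ± 0.18, edgeR adjusted p = 0.00133). Parp12, on chromosome 6 (39086410 to 39118349), encodes a zinc finger ADP-ribosyltransferase that restricts viruses. It was at 39.4 and 36.9 CPM in WT and at 24.3 and 21.3 in Ctnnb1-ex3, 1.67-fold lower (log2 fold change -0.74 ± 0.24, edgeR adjusted p = 0.0426). That call was lost when either WT library was left out, with edgeR adjusted p = 0.208 without WT replicate 1 and 0.194 without WT replicate 2.

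Of the 4 transcription factors, Irf1 and Irf9 fell. Irf1 encodes a factor that is itself induced by interferon and activates many of the other genes. It was at 149 and 138 CPM in WT and at 58.5 and 67.0 in Ctnnb1-ex3. The 2 pairs of libraries were well separated, with a mean of 144 ± 7.69 against 62.8 ± 6.07, 2.30-fold lower (log2 fold change -1.20 ± 0.14, edgeR adjusted p = 0.000635). Irf1 lies on chromosome 11 (53770014 to 53778374, plus strand), and the stretch with its GAS motif is printed above. Irf9, the DNA-binding partner of STAT2, was at 51.6 and 58.6 CPM in WT and at 38.3 and 26.2 in Ctnnb1-ex3. The groups did not overlap, and Irf9 was 1.69-fold lower (log2 fold change -0.75 ± 0.24, edgeR adjusted p = 0.0353). Irf9 lost its call without WT replicate 1 (edgeR adjusted p = 0.066) and without WT replicate 2 (0.207), and it shares 123 exon bases with Rnf31 on the same strand. Stat2 and Irf7 did not pass the test, with log2 fold changes of -0.34 ± 0.20 and -0.51 ± 0.31.

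Ifi35, an interferon-induced leucine zipper protein that binds NMI, was the member with the lowest adjusted p. It was at 181 and 183 CPM in WT and at 75.6 and 68.1 in Ctnnb1-ex3. The mean went from 182 ± 1.59 to 71.8 ± 5.32, 2.52-fold lower (log2 fold change -1.34 ± 0.14, edgeR adjusted p = 0.000385). Ifi35 lies on chromosome 11 (101448407 to 101458698, plus strand).

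The OAS family makes or resembles the enzymes that produce 2′-5′ oligoadenylate, the signal that switches on RNase L. Its 4 members did not move together: Oas1a and Oasl2 fell, Oas2 rose and Oas3 did not pass the test. Oasl2 was at 11.5 and 16.4 CPM in WT and at 1.65 and 1.03 in Ctnnb1-ex3, from 50 and 43 counts down to 11 and 4. This was the largest fall in the set, 9.82-fold (log2 fold change -3.30 ± 0.55, edgeR adjusted p = 0.0028). Oas1a was at 32.0 and 34.2 CPM in WT and at 12.0 and 13.4 in Ctnnb1-ex3, 2.61-fold lower (log2 fold change -1.38 ± 0.29, edgeR adjusted p = 0.0072). Its groups did not overlap, and the call was lost without WT replicate 2 (edgeR adjusted p = 0.0572). Oas2 was at 0.921 and 0.380 CPM in WT, or 4 counts and 1 count, and at 2.86 and 7.71 CPM in Ctnnb1-ex3, or 19 and 30 counts. It was 7.10-fold higher (log2 fold change 2.83 ± 0.79, edgeR adjusted p = 0.0236) and lay near the floor in WT. The Oas2 call was lost without WT replicate 1 (log2 fold change 3.65, edgeR adjusted p = 0.17) or WT replicate 2 (2.45 and 0.254), and the value was 1.97 without Ctnnb1-ex3 replicate 2. With 1 taken away from every count it was 3.50 (edgeR adjusted p = 0.0300). Oas3, next to Oas2 on chromosome 5, was at 6.68 and 11.4 CPM in WT and at 7.97 and 6.94 in Ctnnb1-ex3, with overlapping groups. Oas1a has near-identical copies in the mouse genome and Oasl2 has the paralog Oasl1, so reads may have been split or shared among them.

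The IFIT proteins bind viral RNA that lacks the host's cap marks. Ifit1 and Ifit2 went opposite ways. Ifit1 was at 11.5 and 9.13 CPM in WT and at 1.05 and 4.37 in Ctnnb1-ex3, from 50 and 24 counts to 7 and 17. It was 4.04-fold lower (log2 fold change -2.02 ± 0.68, edgeR adjusted p = 0.0448), and the groups did not overlap. With 1 taken away from every count, Ifit1 was not called (log2 fold change -2.08, edgeR adjusted p = 0.0558). The Ifit1 value ranged from -3.28 without Ctnnb1-ex3 replicate 2 to -1.26 without Ctnnb1-ex3 replicate 1, and the call was lost without WT replicate 1 (edgeR adjusted p = 0.302) or WT replicate 2 (0.145). Ifit2 was at 1.84 and 2.66 CPM in WT and at 9.47 and 6.94 in Ctnnb1-ex3, from 8 and 7 counts to 63 and 27. It was 3.72-fold higher (log2 fold change 1.89 ± 0.53, edgeR adjusted p = 0.0239). Its groups did not overlap either, and the call was lost without WT replicate 1 (edgeR adjusted p = 0.303) or WT replicate 2 (0.184). Ifit3 had 17 and 5 counts in WT, against 5 and 9 in Ctnnb1-ex3, with overlapping CPM. All 3 genes lie close together on mouse chromosome 19, and Ifit1 and Ifit3 have paralogs there with which reads may be shared.

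Mx1 encodes a GTPase that traps viral nucleoproteins. It was at 6.22 and 5.71 CPM in WT and at 0.902 and 1.80 in Ctnnb1-ex3, from 27 and 15 counts to 6 and 7. The groups did not overlap, and Mx1 was 4.56-fold lower (log2 fold change -2.19 ± 0.58, edgeR adjusted p = 0.0195). Without WT replicate 1 the Mx1 call was lost (edgeR adjusted p = 0.339), as it was without WT replicate 2 (0.247). Ifih1, which encodes the double-stranded RNA sensor MDA5, was at 83.3 and 70.0 CPM in WT and at 56.8 and 50.1 in Ctnnb1-ex3. It was 1.44-fold lower (log2 fold change -0.52 ± 0.16, edgeR adjusted p = 0.0341). The smallest of the falls, it was also lost without WT replicate 1 (edgeR adjusted p = 0.298) or WT replicate 2 (0.0997).

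The remaining members did not pass the test in the genotype experiment. Ddx58, which encodes the RNA sensor RIG-I, had a log2 fold change of -0.42 ± 0.24. Trim25, the ubiquitin ligase that acts on RIG-I, had -0.25 ± 0.13, and its libraries did not overlap. Eif2ak2, which encodes the translation inhibitor PKR, had -0.07 ± 0.16, with 104 and 103 CPM in WT and 110.3 and 85.8 in Ctnnb1-ex3. Adar, which encodes the RNA editing enzyme, had 0.32 ± 0.16, and it shares 1365 exon bases with Chrnb2 on the opposite strand. Bst2, which encodes tetherin, was at 14.5 and 16.0 CPM in WT and at 27.2 and 23.6 in Ctnnb1-ex3, so that its groups did not overlap (log2 fold change 0.74 ± 0.30, edgeR adjusted p = 0.0817). Isg15, the ubiquitin-like modifier that names the family, stood at 8 and 8 counts in WT, against 16 and 20 in Ctnnb1-ex3 (log2 fold change 0.62 ± 0.63). Usp18, which removes ISG15, stood at 12 and 9 counts in WT, against 44 and 12 in Ctnnb1-ex3. In both genes the CPM of the groups overlapped.

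In several of these genes the libraries of a group lay far apart. Zbp1, a sensor of Z-form nucleic acid, had 29 and 8 counts in WT but 2 and 23 in Ctnnb1-ex3. Rsad2, which encodes viperin, had 19 and 3 counts in WT, against 79 and 16 in Ctnnb1-ex3. Dhx58, a relative of the RNA sensors, had 41 and 11 counts in WT, against 14 and 20 in Ctnnb1-ex3, and the chemokine gene Cxcl10 had 19 and 7 in WT, against 17 and 24 in Ctnnb1-ex3. For these 4 genes the CPM of the groups overlapped. Ifi44 and Xaf1 had log2 fold changes of -0.81 ± 0.53 and -0.55 ± 0.38 without overlap. Of the untested genes, Mx2, annotated as a polymorphic pseudogene in the mouse reference, had 5 to 16 counts, and Gbp2 and Gbp3 had 1 or 2 counts in every library.

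Several calls depended on having both WT libraries. Irf1, Oasl2, Parp9, Parp14, Dtx3l and Ifi35 kept their calls under every alternative tried, and the other 8 called genes lost theirs in at least 1. Without WT replicate 1, 7 members fell and 0 rose, and without WT replicate 2, 6 fell and 0 rose. In those fits the count at an edgeR adjusted p under 0.05 over all genes also dropped, from 5291 to 2960 and to 2634. Values of genes that were not called with all libraries also moved. Without Ctnnb1-ex3 replicate 2, the log2 fold change was -3.96 for Zbp1, -1.74 for Dhx58, -1.98 for Ifit3, 1.96 for Rsad2 and 0.84 for Bst2. Without Ctnnb1-ex3 replicate 1, it was -0.79 for Ddx58 and 0.45 for Adar. Rsad2 stood at 0.44 there, beside 1.47 with all libraries.

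Markers of immune cells differed among the libraries of each group. The 17 immune markers in the table summed to 110 and 27.0 CPM in WT and to 23.3 and 89.9 in Ctnnb1-ex3. In Ctnnb1-ex3 replicate 2, the cytotoxic lymphocyte genes Gzma, Nkg7 and Cd3e had 110, 28 and 14 counts, and in the other 3 libraries 1 or 2. In WT replicate 1, the myeloid gene Lyz2 had 323 counts, beside 3 in WT replicate 2 and 33 and 74 in Ctnnb1-ex3. Lyz2 alone made up most of the difference between the WT sums. Of the 17 markers 5 were tested and 0 called by edgeR. Their part in the values of the interferon-stimulated genes was not tested. With all 4 libraries Zbp1, Dhx58 and Ifit3 had log2 fold changes of -0.80, -0.99 and -1.06 (edgeR adjusted p = 0.561, 0.245 and 0.268). Without Ctnnb1-ex3 replicate 2 these values were lower, as given above. In the same fit Ddx58, Irf9 and Parp9 had higher values, -0.18, -0.52 and -1.03, beside -0.42, -0.75 and -1.29 with all libraries. The 10 stromal and endothelial markers summed to 9.90 to 17.7 CPM. Epithelial identity was plain in all 4 libraries, with all 15 epithelial markers tested. These 15 markers summed to 3955 and 4766 CPM in WT and to 2760 and 3660 in Ctnnb1-ex3. Among them the stem cell genes Lgr5 and Olfm4 rose (log2 fold changes 4.07 and 1.89), and the genes of differentiated cells Krt20, Alpi and Muc2 fell (-2.62, -3.78 and -0.85), as did Vil1 (-0.75) and Krt19 (-0.66). Whether the shift among these epithelial cell states had a part in the falls above was not tested.

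In the knockdown experiment the same 34 genes, under their human symbols, moved both ways. The filter passed 29, all but OAS2, RSAD2, MX2, BST2 and XAF1. Of these 29, 9 rose (31.0%), 5 fell (17.2%) and 15 did not pass the test. Over all 18447 genes tested, 20.6% rose and 20.4% fell. The median log2 fold change was 0.21 over the 29 genes and 0.03 over all genes tested. The groups did not overlap in 12 genes that were higher and 8 that were lower in sh-Prmt1, beside 36.8% and 34.4% of all genes.

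Most of these genes were scarce in the knockdown libraries. TPM, a deposited abundance per transcript length that sums to the same total in each library, corrects for transcript length and allows genes to be compared with one another. In sh-scramble, 20 of the 34 had a mean TPM under 1 and 5 were over 3. In sh-Prmt1, 20 were under 1 and 8 were over 3. ISG15 had the highest TPM, 22.1 and 21.6 in sh-scramble, against 57.3 and 46.1 in sh-Prmt1. OAS1 came next with 14.8 and 14.4 in sh-scramble, against 24.6 and 25.0 in sh-Prmt1.

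**Figure D3:**
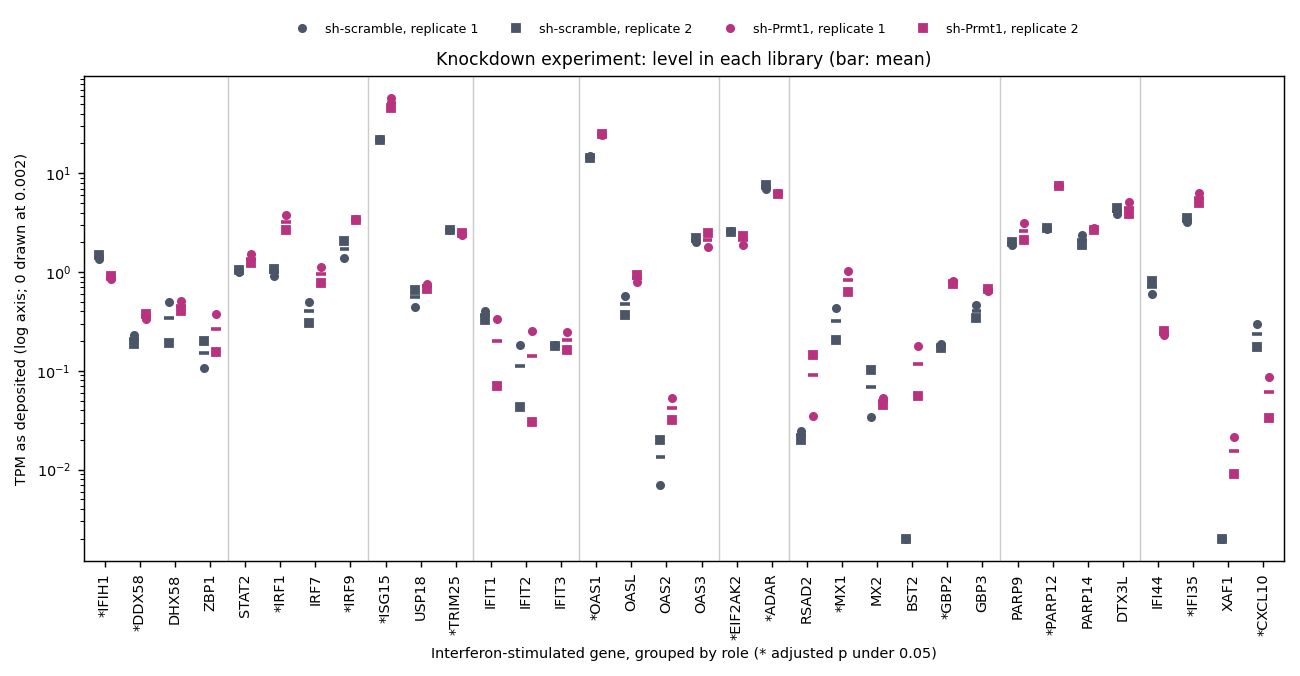
Deposited TPM (log axis, with 0 drawn at 0.002) of the 34 genes in each sh-scramble (grey) and sh-Prmt1 (magenta) library, with circles for replicate 1, squares for replicate 2 and bars for group means. Asterisks mark the 14 genes with an edgeR adjusted p under 0.05 on the estimated counts, and grey lines separate the roles. ISG15 and OAS1 have the highest levels, and 20 of the 34 genes have a mean under 1 TPM in sh-scramble.

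PARP12 had the lowest adjusted p among the members. It was at 9.25 and 9.39 CPM in sh-scramble and at 22.9 and 23.5 in sh-Prmt1. The libraries of each group lay close together, and the mean was 2.49-fold higher (log2 fold change 1.32 ± 0.10, edgeR adjusted p = 1.81e-05). Its relatives did not pass the test: PARP9 had a log2 fold change of 0.20 ± 0.14, PARP14 0.17 ± 0.13 and DTX3L -0.07 ± 0.11.

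IRF1 was at 4.50 and 5.07 CPM in sh-scramble and at 12.1 and 10.7 in sh-Prmt1. The mean went from 4.79 ± 0.40 to 11.4 ± 0.952, 2.37-fold higher (log2 fold change 1.25 ± 0.14, edgeR adjusted p = 0.000123). IRF9 was at 1.43 and 1.60 CPM in sh-scramble and at 2.38 and 2.59 in sh-Prmt1. It was 1.64-fold higher (log2 fold change 0.71 ± 0.23, edgeR adjusted p = 0.0314) without overlap, a call that was lost when any of the 4 libraries was left out (adjusted p 0.0512 to 0.138). IRF7, the factor that amplifies type I interferon, had 15 and 13 counts in sh-scramble, against 35 and 42 in sh-Prmt1, again without overlap (log2 fold change 1.13 ± 0.42, edgeR adjusted p = 0.0548). STAT2 had a log2 fold change of 0.21 ± 0.16.

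ISG15 was at 10.1 and 9.10 CPM in sh-scramble and at 20.5 and 17.2 in sh-Prmt1. The groups did not overlap, and the mean was 1.96-fold higher (log2 fold change 0.97 ± 0.13, edgeR adjusted p = 0.000281). USP18, which removes ISG15, had a log2 fold change of 0.17 ± 0.27. TRIM25 was at 24.8 and 23.2 CPM in sh-scramble and at 18.1 and 20.1 in sh-Prmt1, 1.26-fold lower (log2 fold change -0.33 ± 0.10, edgeR adjusted p = 0.0249). Without sh-Prmt1 replicate 1 the TRIM25 adjusted p was 0.123, and without sh-scramble replicate 1 it was 0.0741.

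Of the OAS genes, OAS1 rose. It was at 31.5 and 28.9 CPM in sh-scramble and at 43.1 and 46.8 in sh-Prmt1, 1.49-fold higher (log2 fold change 0.58 ± 0.09, edgeR adjusted p = 0.000859). OASL, taken as the human counterpart of Oasl2, had a log2 fold change of 0.44 ± 0.29, and OAS3 had -0.40 ± 0.17. OAS2 was under the filter with 1 and 4 counts in sh-scramble, against 10 and 11 in sh-Prmt1.

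MX1 and GBP2, both antiviral GTPase genes, had the largest rises, from very low levels. MX1 had 16 and 10 counts in sh-scramble, against 68 and 103 in sh-Prmt1. In CPM it was at 0.431 and 0.236 against 1.59 and 1.81, 5.13-fold higher (log2 fold change 2.36 ± 0.38, edgeR adjusted p = 0.000869). GBP2 had 12 and 18 counts in sh-scramble, against 62 and 88 in sh-Prmt1, or 0.324 and 0.424 CPM against 1.45 and 1.55. It was 3.97-fold higher (log2 fold change 1.99 ± 0.35, edgeR adjusted p = 0.00142). In TPM, MX1 was at 0.431 and 0.204 against 1.03 and 0.625. The authors' deposited table gives MX1 a log2 fold change of 0.44 with an adjusted p of 0.681, and GBP2 1.49 with 0.0120. For both genes the lowest sh-Prmt1 library lay above the highest sh-scramble library, and for both the mean TPM stayed under 1 in sh-Prmt1. GBP3, a relative of GBP2, did not pass the test (log2 fold change 0.50 ± 0.22, edgeR adjusted p = 0.105).

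IFI35 was at 3.91 and 3.99 CPM in sh-scramble and at 6.03 and 4.97 in sh-Prmt1, 1.39-fold higher (log2 fold change 0.47 ± 0.17, edgeR adjusted p = 0.0456). Its groups did not overlap. It was the least firm of the calls, lost under 8 alternatives, among them those without sh-Prmt1 replicate 1 (adjusted p = 0.254), sh-scramble replicate 1 (0.139) and sh-scramble replicate 2 (0.107). DDX58 was at 2.35 and 1.84 CPM in sh-scramble and at 2.92 and 3.56 in sh-Prmt1, 1.55-fold higher (log2 fold change 0.64 ± 0.22, edgeR adjusted p = 0.0431). The DDX58 call was lost without sh-Prmt1 replicate 2 (adjusted p = 0.224) or sh-scramble replicate 2 (0.212), and with the replicate number as a block (0.0624). The block also ended the call of IFI35 (0.0629).

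The other RNA sensors and the double-stranded RNA enzymes did not rise. IFIH1 was at 7.55 and 7.99 CPM in sh-scramble and at 3.76 and 4.56 in sh-Prmt1, 1.86-fold lower (log2 fold change -0.90 ± 0.16, edgeR adjusted p = 0.00139). ADAR was at 62.5 and 67.2 CPM in sh-scramble and at 46.4 and 49.5 in sh-Prmt1, 1.35-fold lower (log2 fold change -0.44 ± 0.09, edgeR adjusted p = 0.00303). The groups did not overlap in either gene. In a limma fit of log2(TPM + 1), neither passed: IFIH1 had a difference of -0.36 (limma adjusted p = 0.0712) and ADAR -0.18 (0.211). The median of all genes in that fit was 0.12. The mean TPM of IFIH1 was 1.42 in sh-scramble and 0.880 in sh-Prmt1, so the 1 added to each TPM made its difference smaller. EIF2AK2 was at 44.0 and 41.8 CPM in sh-scramble and at 30.9 and 37.2 in sh-Prmt1, 1.26-fold lower (log2 fold change -0.33 ± 0.10, edgeR adjusted p = 0.0292). The EIF2AK2 call was lost without sh-Prmt1 replicate 1 (adjusted p = 0.166). DHX58 and ZBP1 had 6 to 18 counts in every library and overlapping groups.

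CXCL10, a chemokine gene that is strongly induced by interferon gamma, fell. It had 31 and 20 counts in sh-scramble, against 9 and 5 in sh-Prmt1, or 0.836 and 0.472 CPM against 0.210 and 0.0880. It was 4.45-fold lower (log2 fold change -2.15 ± 0.60, edgeR adjusted p = 0.0168) without overlap. The CXCL10 call was lost without sh-Prmt1 replicate 2 (log2 fold change -1.64, adjusted p = 0.111) and without sh-scramble replicate 1 (-1.73, 0.153), and the value was -2.86 without sh-Prmt1 replicate 1. In the authors' deposited table CXCL10 has a log2 fold change of -0.79 with an adjusted p of 0.169.

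The IFIT genes did not pass the test. IFIT1 had 126 and 112 counts in sh-scramble, against 103 and 33 in sh-Prmt1, without overlap in CPM (log2 fold change -1.05 ± 0.49, edgeR adjusted p = 0.118). It was called lower under 5 of 10 alternatives, and its value was -2.38 (edgeR adjusted p = 0.00058) without sh-Prmt1 replicate 1 and -0.35 (0.350) without sh-Prmt1 replicate 2. IFIT2 had 41 and 12 counts in sh-scramble, against 62 and 11 in sh-Prmt1, so that replicates differed by more than the groups. IFIT3 had 30 to 39 counts in every library. IFI44 had 43 and 33 counts in sh-scramble, against 21 and 41 in sh-Prmt1 (log2 fold change -0.66 ± 0.39, edgeR adjusted p = 0.212). On the TPM scale its libraries were further apart, at 0.599 and 0.803 in sh-scramble, against 0.232 and 0.253 in sh-Prmt1. In the authors' deposited table IFI44 has a log2 fold change of -1.26 with an adjusted p of 0.0252. RSAD2 had 5 to 13 counts in every library and MX2 7 to 11. BST2 had 0 counts in both sh-scramble libraries and 3 in each sh-Prmt1 library, and XAF1 had 0 in both and then 5 and 3, too few for a comparison.

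Immune markers summed to low levels in the knockdown libraries, and 9 to 12 of the 19 had 3 or fewer counts in each library. The sums were larger in sh-Prmt1, a difference that came almost wholly from CD68 and LYZ. The 19 markers summed to 4.91 and 4.72 CPM in sh-scramble and to 8.60 and 7.33 in sh-Prmt1. CD68, with 43 and 36 counts in sh-scramble, against 161 and 182 in sh-Prmt1, and LYZ, with 18 and 22 against 64 and 60, rose, and these were the 2 called of the 5 tested. PTPRC, the defining gene of blood cells, had 1 count in each sh-scramble library and 7 and 4 in sh-Prmt1. The 10 stromal and endothelial markers summed to 1.11 and 1.04 CPM against 2.17 and 1.46, and the 13 epithelial markers to 3143 and 3077 against 3867 and 3785. Of the 12 epithelial markers tested, 3 rose and 1 fell, beside 20.6% and 20.4% of all genes. The part of all these markers in the rises of the interferon-stimulated genes was not tested.

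The experiments share no libraries, and 27 of the genes were tested in both. Of those, 7 were called in both, and 6 of the 7 fell in Ctnnb1-ex3 and rose in sh-Prmt1: Irf1, Irf9, Oas1a, Mx1, Parp12 and Ifi35. Ifih1 fell in both, and 0 rose in both. Among the 6, Irf1 alone kept its call under every alternative in both experiments. In the authors' deposited comparisons, only Irf1 and Oas1a of the 6 had an adjusted p under 0.05 in both experiments. The fold changes of Mx1 stood at -2.19 ± 0.58 and 2.36 ± 0.38 on the log2 scale, and those of Irf1 at -1.20 ± 0.14 and 1.25 ± 0.14. Over the 27 genes, called or not, 15 had opposite signs (55.6%). Among 9551 genes tested in both and paired only by an identical symbol apart from letter case, 49.6% had opposite signs. Of these 9551, 2079 were called in both (21.8%), and 629 fell in Ctnnb1-ex3 and rose in sh-Prmt1 (6.59%), beside 6 of the 27 interferon-stimulated genes (22.2%). Parp9, Parp14, Dtx3l and Oasl2 fell in Ctnnb1-ex3, and none of their human counterparts passed the test in the knockdown. Species, gene annotation, depth and culture also differed between the experiments, and the difference between their fold changes was not tested.

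**Figure D4:**
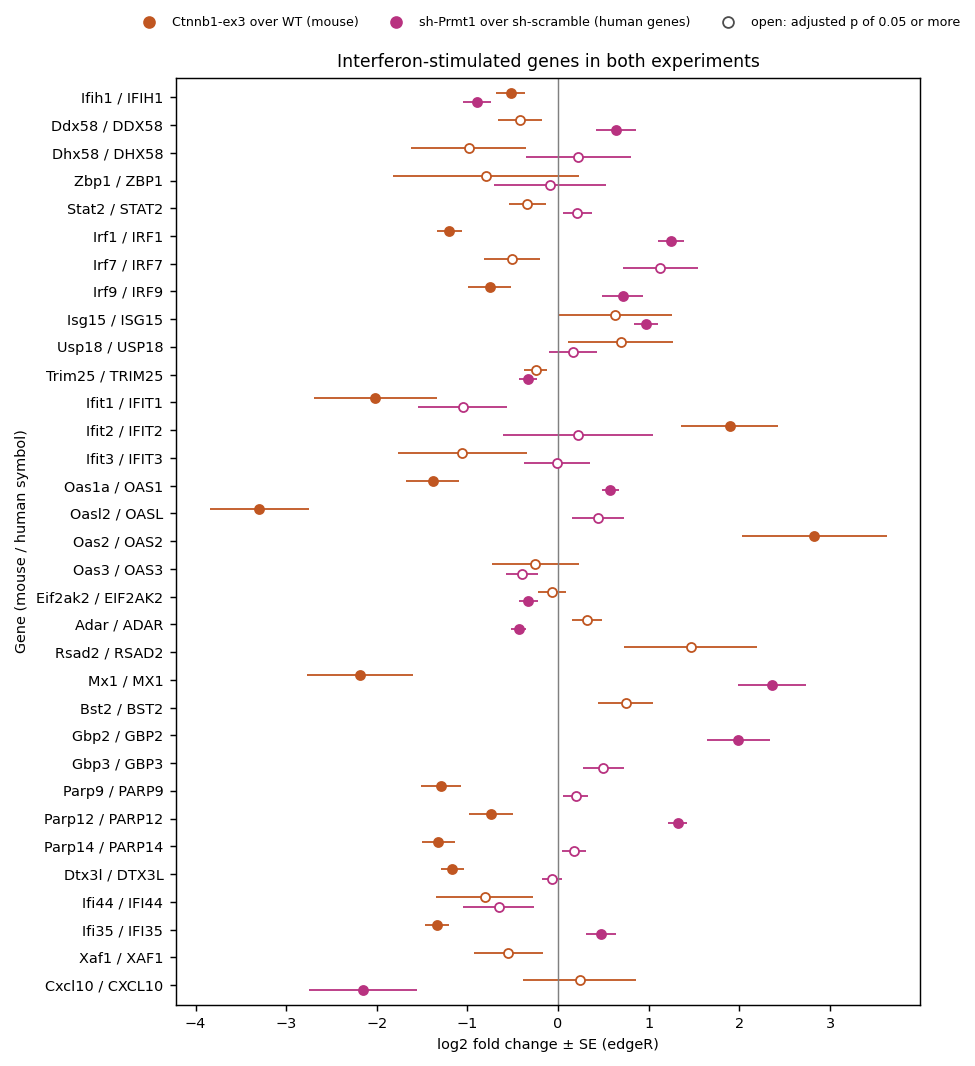
Log2 fold change ± SE from edgeR for Ctnnb1-ex3 over WT (orange, mouse genes) and sh-Prmt1 over sh-scramble (magenta, human genes), with filled points for an adjusted p under 0.05 and no point where a gene was not tested. Irf1, Irf9, Oas1a, Mx1, Parp12 and Ifi35 have filled points left of 0 for the genotype and right of 0 for the knockdown. Ifih1 has both left of 0. Of these genes, Irf1 alone kept both calls under every alternative.

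Genes that act before the interferon-stimulated genes in the pathway were read in the same fits. Their counts, and those of the further lists, stand beside 20.5% of all genes falling and 20.3% rising in Ctnnb1-ex3, and 20.6% rising and 20.4% falling in the knockdown. Transcripts of interferons themselves were at or near the floor: 0 of the 8 mouse and 0 of the 11 human ligand genes in the tables passed the filter, with at most 11 and 2 counts in any library. Of the 6 receptor genes 4 fell and 0 rose in Ctnnb1-ex3. Ifnlr1, which encodes the type III interferon receptor chain, was at 33.2 and 30.1 CPM in WT and 4.51 and 11.0 in Ctnnb1-ex3 (log2 fold change -2.07 ± 0.45, edgeR adjusted p = 0.00827). Its partner chain gene Il10rb had a log2 fold change of -1.59 ± 0.14, and the type II receptor genes Ifngr1 and Ifngr2 had -1.05 ± 0.15 and -0.79 ± 0.15. The type I receptor genes Ifnar1 and Ifnar2 did not pass, at -0.31 ± 0.14 and -0.05 ± 0.28.

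In the knockdown 4 of the 6 receptor genes rose and 0 fell. IFNLR1 had 45 and 59 counts in sh-scramble, against 98 and 170 in sh-Prmt1 (log2 fold change 1.02 ± 0.25, edgeR adjusted p = 0.00895). IFNAR1 rose with a log2 fold change of 0.55 ± 0.09, IFNAR2 with 0.82 ± 0.17 and IL10RB with 0.69 ± 0.12. Ifnlr1 and Il10rb were thus called in both experiments, with opposite signs.

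Of 8 tested genes of JAK-STAT signalling and its feedback, 2 fell and 0 rose in Ctnnb1-ex3, the kinase gene Jak2 (log2 fold change -1.19) and the phosphatase gene Ptpn2 (-0.46). In the knockdown 3 of 8 rose, the kinase gene TYK2 (0.65), the feedback inhibitor gene SOCS3 (2.18) and the phosphatase gene PTPN6 (1.04). PIAS1, whose product holds back STAT proteins, fell there (-0.24).

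Nucleic acid sensors and their adaptors were mixed in both experiments. In Ctnnb1-ex3, 4 of 13 rose, the DNA sensing genes Tmem173 (log2 fold change 2.78) and Mb21d1 (1.04), which encode STING and cGAS, with Zc3hav1 (0.67) and Irak1 (0.42). There, 6 fell, the RNA sensing adaptor gene Mavs (-1.18), Tlr3 (-1.36) and its adaptor gene Ticam1 (-1.19), the kinase genes Tbk1 (-0.81) and Ikbke (-0.72), and the DNA sensor gene Aim2 (-1.59). In the knockdown 7 of 12 rose, MAVS (0.99), TICAM1 (1.20), IKBKE (1.02), IRF3 (0.50), IRAK1 (0.45), MYD88 (0.40) and TRAF3 (0.40), and 2 fell, CGAS (-0.54) and TBK1 (-0.31).

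**Figure D5:**
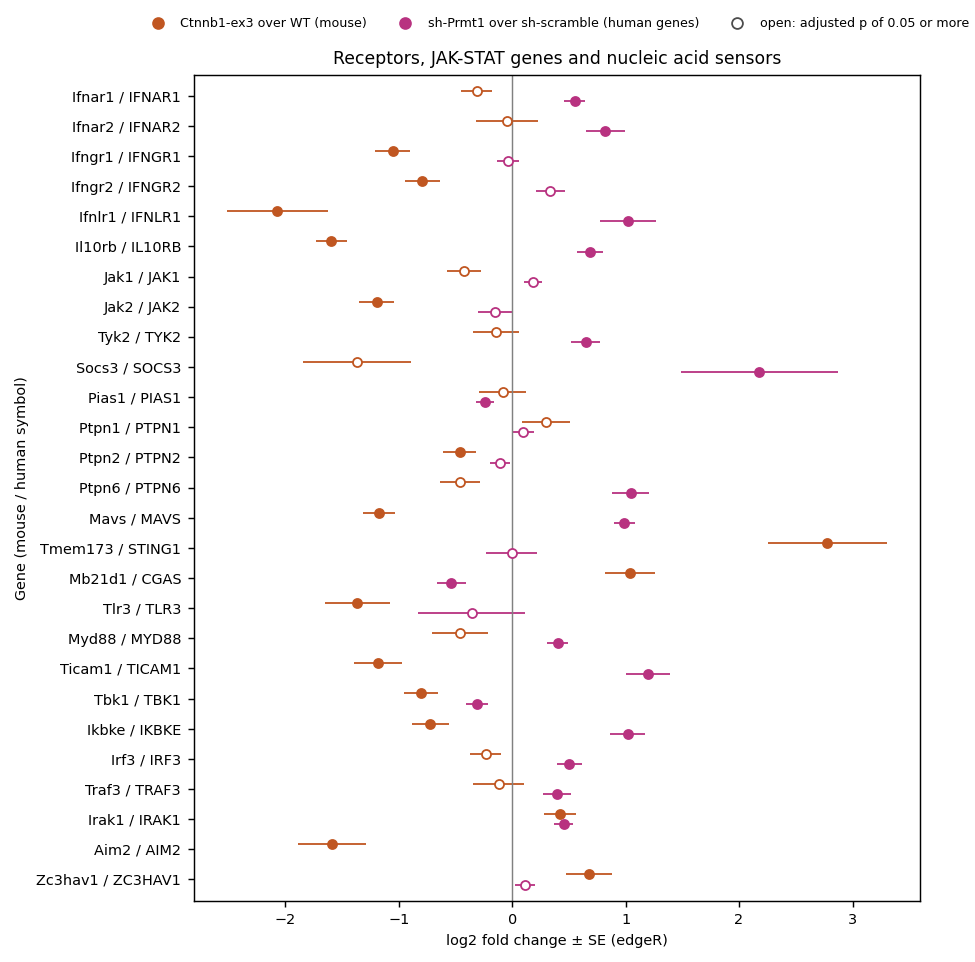
Log2 fold change ± SE from edgeR for receptor, JAK-STAT and nucleic acid sensing genes, drawn as Ctnnb1-ex3 over WT (orange) and sh-Prmt1 over sh-scramble (magenta), with filled points for an adjusted p under 0.05. Ifnlr1, Il10rb, Mavs, Mb21d1, Ticam1 and Ikbke have filled points on opposite sides of 0 in the experiments.

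A longer list of further interferon-stimulated genes gave 18 falls (38.3%) and 1 rise (2.13%) among 47 tested in Ctnnb1-ex3. In the knockdown it gave 12 rises (28.6%) and 7 falls (16.7%) among 42 tested. The shares of all genes are those given above for the pathway. This list too was chosen with earlier results of these data known, so it is no independent check. The medians were -0.51 and 0.27 on the log2 scale, beside 0.02 and 0.03 over all genes. The rise in Ctnnb1-ex3 was Ifitm1 (log2 fold change 4.58 ± 0.39), a membrane protein gene that blocks viral entry. Among genes with an average log2 CPM over 2, the largest falls were Oas1g (-2.94), Batf2 (-2.77), Trim34a (-1.90) and Oasl1 (-1.84), followed by Ube2l6 (-1.06) and Uba7 (-0.98), which encode enzymes that attach ISG15. Above the same level, the largest rises in the knockdown were LGALS9 (1.74), IFI27 (1.60), DDX60 (1.15), LGALS3BP (1.05), ISG20 (0.99) and ZNFX1 (0.78). The largest falls there were CXCL11 (-2.52), PLSCR1 (-0.98), IFITM1 (-0.90), TRIM21 (-0.72), TOR3A (-0.49) and IRF8 (-0.41). CXCL11 encodes a chemokine of the same receptor as CXCL10, which also fell.

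The promoter matches can be set beside the calls in the genotype experiment. The ISRE core was present in 2 of the 9 genes that fell and had a window, in 0 of the 1 that rose, and in 9 of the 16 others. The GAS motif was present in 2 of those 9, in Ifit2 as the 1 that rose, and in 2 of the 16. A match is a description of the letters, and its absence from these windows says nothing of binding elsewhere.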

How the data were processed

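Polyadenylated RNA was sequenced from 8 libraries made with a custom Smart-seq2 procedure, per the labels. For the genotype experiment the authors deposited whole-number counts per mouse gene symbol; no count is below 1 and 861 genes stand at 1 in all 4 libraries, and an alternative took 1 from every count. The knockdown files hold Salmon estimated counts and TPM per human gene, per the file headers; the estimated counts were rounded, and 199 human sex-linked genes were left out. The submitters' processing notes name mm10, Salmon and DESeq2; versions, roles and the human build, as well as the aligner and annotation behind the mouse counts, were not given in the sources used here. The authors also deposited their own comparisons as log2 fold changes with adjusted p-values, quoted only where named.

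The experiments were fitted separately in R 4.3.3 with edgeR 4.0.16 (TMM, filterByExpr, two-sided quasi-likelihood test, Benjamini-Hochberg over all genes tested, threshold 0.05). This left 12976 and 18447 genes, with a biological coefficient of variation of 0.171 and 0.105. The procedure was also run on simulated counts with known changes in a small part of the genes. Those counts were drawn independently for each library, so that run cannot show whether the replicates here are independent. DESeq2 1.42.0, limma 3.58.1 (voom, and log2(TPM + 1) for genes with a mean TPM of at least 1), upper-quartile factors, an abundance-dependent offset (loess, span 0.4), no filter, a replicate block and leaving out each library were alternatives. Same-numbered libraries did not deviate together (correlation 0.07 and -0.05), so the numbers were not taken as pairs. Floors cover counting error only, whereas standard errors and p-values include the spread between libraries.

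The members and the further lists were chosen with earlier results of these data known, and 1 gene of the further lists is not reported here. Every member is named; of the other lists, every called ligand, receptor, JAK-STAT and sensing gene is named, and of the further interferon-stimulated genes up to 6 rises and 6 falls whose average log2 CPM reached 2. Mouse positions are from the GENCODE annotation of GRCm38, and promoter sequences from RefSeq on GRCm38.p6. No human promoter or protein sequence was used here.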

Additional observations from a re-analysis of the deposited data

How the results depend on the processing

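No called member changed sign under any alternative, and 6 of 14 calls in each experiment held under every alternative in which the gene was tested. In the knockdown these were IRF1, ISG15, OAS1, PARP12, MX1 and GBP2, of which the log2(TPM + 1) fit did not hold MX1 and GBP2. In the genotype experiment the 2 members called higher became 1 with DESeq2, 0 with the abundance offset, 1 without a filter and 4 with upper-quartile factors, and 0 to 4 when 1 library was left out. Members called lower, 12, ranged from 6 to 15 when 1 library was left out, all genes called, 5291, from 2634 to 7757, and other pathway genes called, 35, from 19 to 47. With 1 taken away from every count, 11 members were called lower and 2 higher. The median over members, -0.55, became -0.95 with the abundance offset and -0.31 with upper-quartile factors. Upper-quartile factors shifted the median of all genes to 0.26 and gave 3725 rises against 1752 falls over all genes, 68.0% higher beside 49.8%, and the members' median lay -0.57 from that of all genes in both scalings. In the knockdown, members called lower, 5, were 3 to 6 when 1 library was left out and 0 in the log2(TPM + 1) fit, which held 15 of the 29 members and not CXCL10, and the median of 0.21 ranged from 0.11 to 0.38. The log2(TPM + 1) fit gave 64.5% of calls higher beside 50.2%, with a median of all genes of 0.12; without a filter that median was 0.31, and the members' median lay -0.10 from it. With the replicate number as a block, 3 members rose and 12 fell in the genotype experiment and 7 rose and 6 fell in the knockdown, and the block called 6484 and 7108 of all genes; the numbers share no stated origin.

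Signs reversed only in members that had not passed the test. In the genotype experiment the abundance offset gave Isg15 -0.22, Usp18 -0.093, Trim25 0.018, Eif2ak2 0.11 and Cxcl10 -0.53, and upper-quartile factors gave Eif2ak2 0.17. With 1 library left out, Zbp1 ran from -3.96 to 0.20, Oas3 from -0.64 to 0.15, Eif2ak2 from -0.28 to 0.092 and Cxcl10 from -0.50 to 0.74 on the log2 scale. In the knockdown the log2(TPM + 1) fit gave DTX3L 0.071, limma-voom gave IFIT2 -0.19 and upper-quartile factors gave IFIT3 0.0050. With 1 library left out, DHX58 ran from -0.34 to 1.0, ZBP1 from -0.62 to 0.70, USP18 from -0.10 to 0.42, IFIT2 from -1.82 to 1.44, IFIT3 from -0.27 to 0.20, PARP14 from -0.051 to 0.35 and DTX3L from -0.24 to 0.059. The causes were not tested. A lone library left in a group was assumed to vary like those of the other group.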

Other observations

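In the authors' deposited tables, 1 of the 34 genes is higher and 8 are lower at an adjusted p under 0.05 in the genotype experiment. In the knockdown experiment, 24 of the 34 have a p there, of which 5 are higher and 4 lower. Shares over all genes were not computed for the authors' tables, so these counts have no background beside them and are a description only. IRF7 is listed in the authors' deposited table with a log2 fold change of 0.28 and no p.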
